A study of Homo sapiens with 6 samples.

Results

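Adhesion G protein-coupled receptors were taken as all gene symbols that start with ADGR and hold no hyphen, which gave 29 of the 27980 symbols counted in each library. RNA was sequenced from RKO, a poorly differentiated human colon carcinoma line, in 6 libraries. In 3 libraries (shTRIP6, genotype given as TRIP6 knockdown) the cells carried a lentiviral hairpin against TRIP6, an adaptor protein of the zyxin family. In the other 3 (shControl, genotype given as WT) they carried a lentiviral scrambled hairpin. Both groups were selected with 5 µg/ml puromycin from 36 h after infection, for 2 to 3 weeks. The labels call the replicates biological, but nothing says that they came from separate cultures, nor whether the cells were pools or clones, so p-values measure only the spread between these libraries. How the members of the family differ between the groups, and which of them are silent in RKO, is described here.

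Adhesion receptors form a family of G protein-coupled receptors with long extracellular regions that bind matrix proteins, membrane proteins or glycans. Most carry a GAIN domain that cuts the receptor into fragments which stay joined, and a peptide at the new end, the tethered agonist, can activate the receptor when the fragments part. Several members couple to the G12 and G13 proteins and through them to small GTPases that shape the cytoskeleton. In colon tumours the best known member is CD97, the product of ADGRE5, described in cells at the invading edge.

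Depth was 31096598 to 32089298 counts per shTRIP6 library and 29605764 to 30949334 per shControl library, so that 1 count was worth 0.0314 to 0.0336 CPM, the count scaled to TMM-adjusted library size. TRIP6 itself had 19.8, 19.4 and 19.5 CPM in shTRIP6 cells, against 73.9, 86.4 and 80.5 CPM in shControl cells (log2 fold change -2.04 ± 0.07 SE, edgeR adjusted p = 1.25e-14). Counts of libraries of the same group differed by more than sampling noise, at a chi-square over its degrees of freedom of 3.05 to 4.59 within shTRIP6 and 4.81 to 11.7 within shControl. Between the groups it was 118 to 135. Of 11 colon epithelial markers, KRT8, KRT18 and KRT19 were well above 1 CPM, while EPCAM, KRT20, CDX1 and VIL1 had no count in any library. The rest were too low to be tested. CDH1 had 2 counts in shTRIP6 and 25 in shControl, LGR5 5 and 15, and MUC2 0 and 3, while CDX2 had 8 and 0. A common hairpin label stands for the knockdown, and the starting stock of each group is not stated, so a difference of stock and one of hairpin cannot be told apart.

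The 29 genes fell into 3 classes by their counts. Silent genes, with no library above 3 counts, numbered 5. Another 8 had traces, above 3 counts in at least 1 library but too few for the test. The remaining 16 had enough counts to be tested. Over all 29 the level summed to 287.9 to 299.8 CPM in shTRIP6 libraries and to 330.2 to 345.8 CPM in shControl libraries, means of 295 ± 6.41 and 336 ± 8.48 CPM (SD, n = 3 each). The summed level was thus lower in shTRIP6 by 0.19 on the log2 scale, a value given without a test. In such bulk RNA, fewer cells with a transcript and less of it per cell cannot be told apart.

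**Figure D1:**
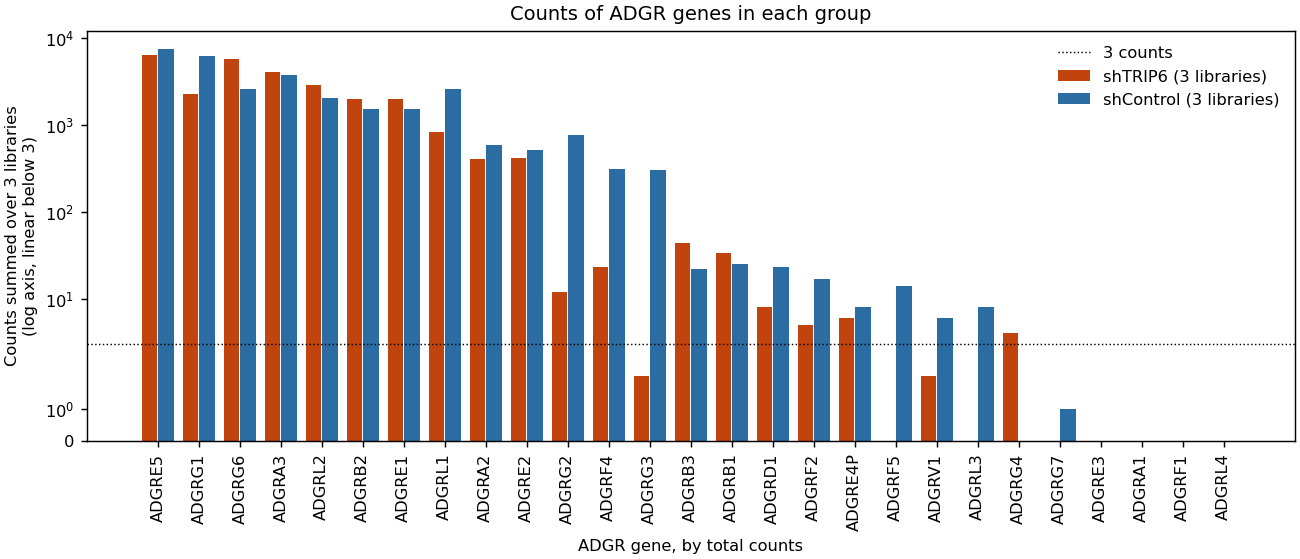
Counts of 27 ADGR genes summed over the 3 shTRIP6 libraries (orange, left bars) and the 3 shControl libraries (blue, right bars), on a log axis that is linear below 3 counts, with genes ordered by total and a dotted line at 3 counts. ADGRE5 had the most counts and 4 genes at the right had none in any library.

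The silent genes were ADGRA1, ADGRE3, ADGRF1 and ADGRL4, with 0 counts in all 6 libraries, and ADGRG7, with 1 count in shControl replicate 3. ADGRL4 is best known from endothelium, ADGRE3 from myeloid cells and ADGRG7 from the intestine. A count of 0 leaves room for up to 3 counts, which is 0.0941 to 0.101 CPM in a library, and this limit covers counting error only. At this depth the 5 genes were not detectable above that floor in either group.

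Traces were seen for ADGRB1, ADGRD1, ADGRE4P, ADGRF2, ADGRF5, ADGRG4, ADGRL3 and ADGRV1. ADGRE4P is annotated as a pseudogene, and ADGRV1 encodes the very large receptor of Usher syndrome. ADGRB1, the brain angiogenesis inhibitor 1 gene, had 10, 14 and 10 counts in shTRIP6, against 1, 21 and 3 counts in shControl. The shControl libraries lay on both sides of the shTRIP6 libraries. ADGRF2 had 0, 5 and 0 counts in shTRIP6, against 17, 0 and 0 in shControl, so that shControl replicate 1 held all counts of its group. ADGRF5, which restrains surfactant in the mouse lung, had no count in shTRIP6, against 4, 3 and 7 counts in shControl, and was at least 4.79-fold lower in shTRIP6 taking 3 counts in the whole group as its floor. It was too low for edgeR with its usual filter, but was called lower without the filter (adjusted p = 0.0198) and in DESeq2 (adjusted p = 0.0321). ADGRL3, a latrophilin, had no count in shTRIP6, against 0, 4 and 4 in shControl, and ADGRG4 had 4 counts in shTRIP6 replicate 1 alone. ADGRD1 had 8 counts in shTRIP6 and 23 in shControl, and ADGRV1 had 2 and 6.

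Of the 16 genes tested, 5 rose and 7 fell in shTRIP6, and 4 missed the adjusted threshold of 0.05. That is 75% called, where 60.1% of all 15473 genes tested were called. By direction, 31.2% of the tested members rose and 43.8% fell, against 29% and 31.2% of all genes. Called changes of at least 2-fold were made for 6 of the 16 tested members, against 2310 of all 15473 genes tested (14.9%). The median log2 fold change of the tested members was -0.11 and that of all tested genes was -0.00. The groups did not overlap in 13 of the 16 members, 6 with shTRIP6 higher and 7 with shTRIP6 lower, against 31.8% and 33.5% of all genes tested, or 65.3% in either direction. The members that passed the filter include those that passed through 1 group only, so these shares describe them and are no test of the family.

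**Figure D2:**
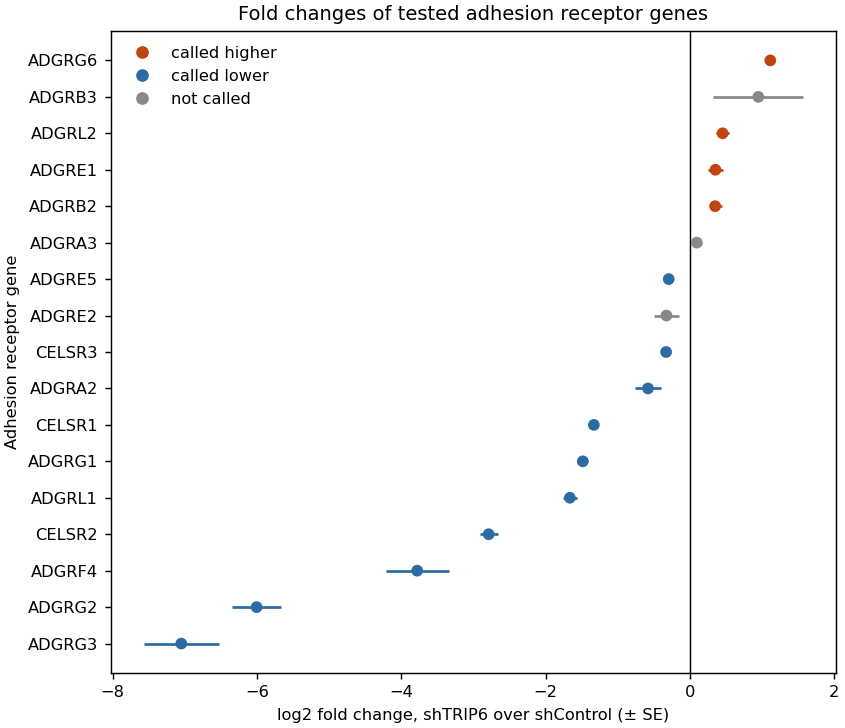
log2 fold change of shTRIP6 over shControl, with SE bars, for 14 tested ADGR genes and the 3 CELSR genes, ordered by size. ADGRG3, ADGRG2 and ADGRF4 lie lowest and ADGRG6 highest, and grey points missed the adjusted threshold of 0.05.

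Per kilobase of annotated exon, ADGRE5 had the highest level of the family in both groups, at 12.5 ± 0.769 CPM per kb in shTRIP6 and 15.3 ± 0.569 in shControl (SD, n = 3). In shTRIP6 it was followed by ADGRG6 (7.13 ± 0.366 CPM per kb), ADGRE1 (5.68 ± 0.520), ADGRA3 (4.74 ± 0.216) and ADGRL2 (3.97 ± 0.309). ADGRG1 and ADGRB2 came next at 2.76 ± 0.208 and 2.73 ± 0.155 CPM per kb, closer to each other than their spread. In shControl ADGRG1 was second (7.74 ± 0.635 CPM per kb), and then came ADGRE1 (4.45 ± 0.428) and ADGRA3 (4.44 ± 0.0460), which did not differ beyond their spread. ADGRL1 (3.34 ± 0.221 CPM per kb) and ADGRG6 (3.30 ± 0.169) did not differ beyond it either. By mean level, ADGRG6 was second in shTRIP6 and sixth in shControl, while ADGRG1 was sixth in shTRIP6 and second in shControl. The sixth places were not set apart by more than the spread, from ADGRL1 in shControl and from ADGRB2 in shTRIP6. Exons of all annotated transcripts were joined for these lengths, and which transcripts RKO cells use was not tested.

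Among the family G genes, ADGRG1, ADGRG2 and ADGRG3 fell, ADGRG6 rose, and ADGRG4 and ADGRG7 were at or near 0. ADGRG3, also known as GPR97 and best known from neutrophils, had 1, 0 and 1 counts in shTRIP6, against 89, 108 and 110 counts in shControl. That left 0.635% of the shControl level, with an exact 95% counting interval of 0.0765% to 2.31%. All shTRIP6 libraries were at or under the floor of 3 counts and all shControl libraries lay far above it (edgeR log2 fold change -7.05 ± 0.52, adjusted p = 1.11e-09, a size that depends on the prior count at such low counts). ADGRG2, also known as GPR64 and needed for fluid handling in the epididymis, had 0.0314, 0.160 and 0.193 CPM in shTRIP6 cells, against 9.74, 6.58 and 8.99 CPM in shControl cells. Its groups stood more than an order of magnitude apart, with 12 counts left in shTRIP6 against 773 in shControl (log2 fold change -6.00 ± 0.34, adjusted p = 1.77e-11). ADGRG1, also known as GPR56 and needed for the folding of the brain cortex, had 25.6, 24.1 and 22.0 CPM in shTRIP6 cells, against 62.5, 65.3 and 73.1 CPM in shControl cells. Every shTRIP6 library lay below every shControl library, and 35.7% of the shControl level remained (log2 fold change -1.49 ± 0.08, adjusted p = 5.39e-12).

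ADGRG6, also known as GPR126 and needed in Schwann cells for myelination, had 57.7, 59.8 and 63.8 CPM in shTRIP6 cells, against 26.6, 29.4 and 27.8 CPM in shControl cells. The groups were far apart relative to their spread (log2 fold change 1.11 ± 0.07, adjusted p = 7.86e-11), and this was the largest called rise of the 29 genes.

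**Figure D3:**
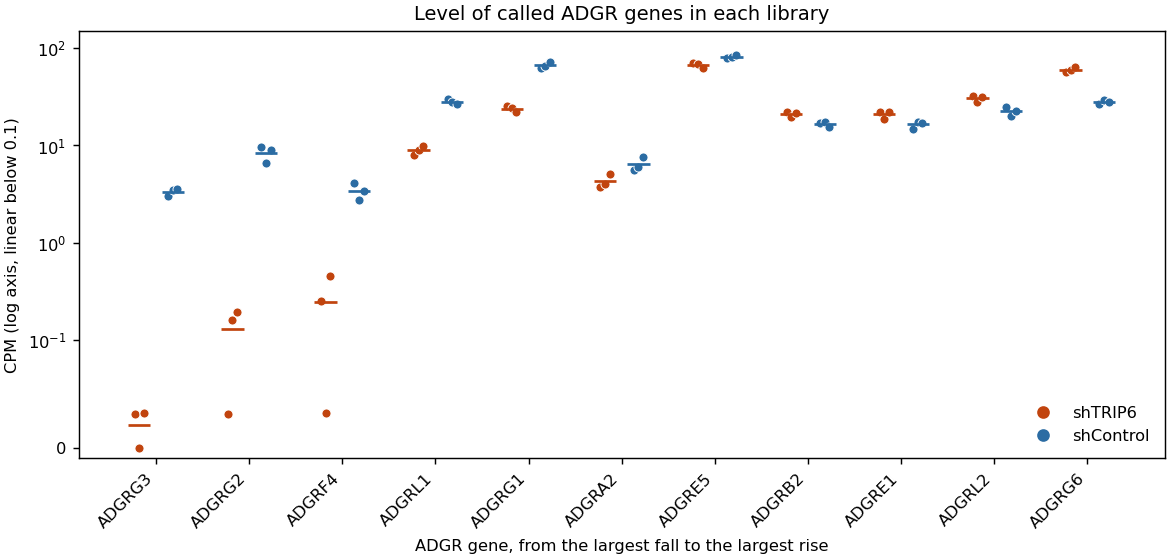
CPM of 11 called ADGR genes in each shTRIP6 library (orange, left) and shControl library (blue, right), on a log axis that is linear below 0.1 CPM, with a bar at each group mean. No gene has overlapping groups, and ADGRG3, ADGRG2 and ADGRF4 are the genes with shTRIP6 libraries under 1 CPM.

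ADGRG1 and ADGRG3, which both fell, are neighbours on the plus strand of chromosome 16 (GRCh38), at 57610652 to 57665580 and 57668187 to 57689378, and are 2607 bases apart. They share no exon in GENCODE release 29, although 107 exon bases of ADGRG3 lie under an antisense gene. Around them, CCDC102A had 8.62 CPM in shTRIP6 against 9.04 CPM in shControl cells and did not pass the test (log2 fold change -0.07, edgeR adjusted p = 0.672). Further out, and named after their values were seen, the docking protein gene DOK4 fell (log2 fold change -1.51, adjusted p = 8.01e-06) and the kinesin gene KIFC3 rose (0.30, adjusted p = 0.000253). POLR2C did not pass the test (0.06, adjusted p = 0.447), and DRC7 was too low to be tested.

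**Figure D4:**
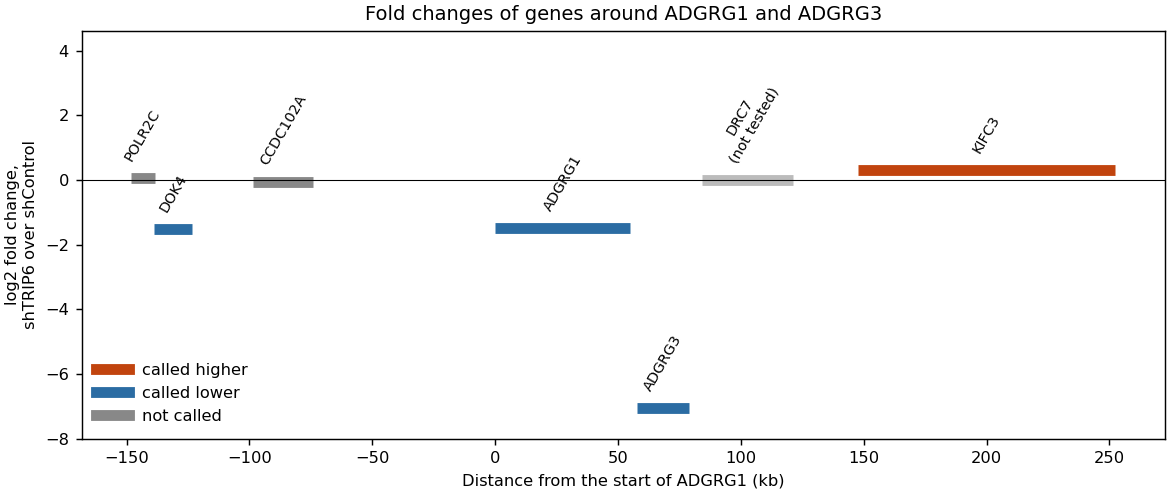
log2 fold change of shTRIP6 over shControl for ADGRG1, ADGRG3 and 5 genes around them, each drawn as a bar over its span in kb from the start of ADGRG1. ADGRG1 lies at -1.49 and ADGRG3 at -7.05, while CCDC102A and POLR2C lie near 0 and DRC7, drawn at 0, was not tested.

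The nearest tested genes beside ADGRG2 and ADGRF4, which both fell, kept closer to their shControl levels, though most lay far away. ADGRG2 lies on the minus strand of chromosome X at 18989309 to 19122637. The gene for a phosphorylase kinase subunit, PHKA2, 4711 bases away, had 19.0 CPM in shTRIP6 against 18.4 CPM in shControl cells and did not pass the test (log2 fold change 0.04). PDHA1, a pyruvate dehydrogenase subunit gene 221256 bases away on its other side, was called lower, by 0.38 on the log2 scale. ADGRF4, also known as GPR115 and best known from keratinocytes, lies on the plus strand of chromosome 6 at 47685864 to 47722021. Its neighbours CD2AP (log2 fold change -0.02) and PTCHD4 (0.52) did not pass the test. ADGRF4 had 0.251, 0.0320 and 0.450 CPM in shTRIP6 cells, against 4.06, 2.76 and 3.39 CPM in shControl cells. No shTRIP6 library reached the lowest shControl library, and the mean was 7.17% of the shControl level (log2 fold change -3.78 ± 0.44, adjusted p = 5.56e-07). The log2 fold change of ADGRF4 was -4.53 without shTRIP6 replicate 3 and -3.26 without shTRIP6 replicate 2. Its exons share 77 bases with those of ADGRF2, which had 5 counts in shTRIP6 and 17 in shControl.

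Bases before the RefSeq start are shown for these 2 genes that fell and for ADGRG6, which rose, to set their composition side by side. They come from RefSeq (GRCh38.p14), where 11 of the 29 members had an entry (ADGRG1, ADGRG3 and ADGRL1 had none), and are limited to bases outside annotated exons, with CG dinucleotides in capitals. The stretches are chrX:19122638-19122718 on the minus strand for ADGRG2, chr6:47698330-47698552 on the plus strand for ADGRF4 and chr6:142301757-142301853 on the plus strand for ADGRG6. The RefSeq start of ADGRF4 lies 12716 bases after the GENCODE start of the gene, inside the span given above, and those of ADGRG2 and ADGRG6 lie 169 and 153 bases after theirs.
ADGRG2: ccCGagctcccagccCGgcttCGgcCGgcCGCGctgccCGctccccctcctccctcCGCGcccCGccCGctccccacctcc
ADGRF4: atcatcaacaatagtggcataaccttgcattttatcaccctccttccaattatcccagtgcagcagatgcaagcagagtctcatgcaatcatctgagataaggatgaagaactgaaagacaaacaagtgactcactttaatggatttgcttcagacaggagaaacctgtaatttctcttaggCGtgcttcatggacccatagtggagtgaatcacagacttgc
ADGRG6: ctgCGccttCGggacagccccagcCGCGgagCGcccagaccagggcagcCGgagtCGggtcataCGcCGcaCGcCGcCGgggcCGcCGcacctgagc
The whole 250 bases before the RefSeq start held 42 CG dinucleotides in ADGRG2 and 34 in ADGRG6, but 1 in ADGRF4. Of the other called members with an entry, which rose, ADGRB2 held 38 and ADGRE1 held 3. Over the 35116 promoters of the table the median was 11, with quartiles of 3 and 23. Letters were searched on both strands for the AP-1 motif TGANTCA, the TEAD motif GGAATG and the TATA box TATAAA, which 6.57%, 11.9% and 10.7% of all promoters hold. ADGRF4 held TGANTCA at 123 and 43 bases before its RefSeq start, and ADGRG2 and ADGRG6 held no match to any of the motifs. Silent members also held matches: TGANTCA in ADGRE3 and ADGRL4, and GGAATG in ADGRF1 and ADGRL4. A match is a description of letters only.

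Among the latrophilins, receptors for teneurins and FLRT proteins at synapses, the 2 detected genes went opposite ways. ADGRL1 had 7.94, 8.92 and 9.93 CPM in shTRIP6 cells, against 30.4, 27.9 and 26.7 CPM in shControl cells, with every shTRIP6 library far below every shControl library (31.5% of the shControl mean, log2 fold change -1.66 ± 0.10, adjusted p = 6.71e-11). ADGRL2 had 32.4, 28.0 and 31.9 CPM in shTRIP6 cells, against 24.7, 20.02 and 22.9 CPM in shControl cells, with no overlap (log2 fold change 0.45 ± 0.09, adjusted p = 0.000272). ADGRL4 was silent and ADGRL3 had traces. Of 8 tested ligands and partners of latrophilins, 2 rose and 3 fell (median log2 fold change 0.12). The teneurin gene TENM3 fell to 37.9 ± 0.479 CPM in shTRIP6 cells, against 103 ± 1.17 CPM in shControl cells, and the neurexin gene NRXN3 fell to 9.74 ± 0.539 against 17.9 ± 0.303 CPM. TENM2 rose to 13.3 ± 1.24 CPM in shTRIP6 cells, against 8.64 ± 1.35 CPM in shControl cells, and FLRT2 rose to 32.3 ± 1.41 against 25.9 ± 1.81 CPM. TENM4 and FLRT3 had no count in any library.

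Of family E, best known from leukocytes, ADGRE5 fell, ADGRE1 rose and ADGRE2 was not called. ADGRE5 had 69.9, 69.1 and 62.4 CPM in shTRIP6 cells, against 79.4, 82.2 and 85.5 CPM in shControl cells. The groups did not overlap, and 81.5% of the shControl level remained (log2 fold change -0.30 ± 0.06, adjusted p = 0.000292). ADGRE1, the human counterpart of the mouse macrophage antigen F4/80, had 22.1, 18.8 and 22.2 CPM in shTRIP6 cells, against 14.7, 17.6 and 17.1 CPM in shControl cells (log2 fold change 0.35 ± 0.10, adjusted p = 0.00527). ADGRE2, a receptor for dermatan sulfate, had 5.27, 3.93 and 4.11 CPM in shTRIP6 cells, against 5.11, 5.29 and 6.30 CPM in shControl cells, which overlap, and it did not pass the test (log2 fold change -0.33 ± 0.17, adjusted p = 0.116). ADGRE2 and ADGRE5 share sequence: 687 of the 50-base words in ADGRE5 transcripts, 12.3% of them, also occur in ADGRE2, so the counting may have split reads between them. In addition 15.7% of the exon bases of ADGRE2 lie under ZNF333 on the other strand, and whether the counting used strand is not stated. Defining leukocyte markers were at or near 0: PTPRC had 0 counts in shTRIP6 and 9 in shControl, CD3E 0 and 4, and SPI1 0 in both. Of 3 tested leukocyte markers, CD14 and CD68 were called higher and CSF1R was not called. CD14 rose to 2.22 ± 0.540 against 0.520 ± 0.189 CPM. CD68, a lysosomal gene of many cells, had 239 ± 4.68 against 208 ± 24.9 CPM, and its groups overlap. The 8 markers summed to 237 to 246 CPM in shTRIP6 libraries and to 187 to 236 CPM in shControl libraries, almost all of it CD68, 81.7% of whose exon bases are shared with an overlapping gene.

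Ligands of CD97 moved in both directions. Of 8 tested genes for ligands of family E receptors or for enzymes that sulfate their glycan ligands, 3 rose and 5 fell (median log2 fold change -0.53). CD55, the complement regulator that CD97 binds, fell to 35.8 ± 4.34 CPM in shTRIP6 cells, against 323 ± 3.35 CPM in shControl cells (log2 fold change -3.17 ± 0.07, adjusted p = 5.52e-18). The integrin chain gene ITGA5 fell to 179 ± 6.49 CPM in shTRIP6 cells, against 391 ± 19.8 CPM in shControl cells. THY1, also a CD97 ligand, rose to 153 ± 10.5 against 89.3 ± 5.03 CPM, and ITGB3 rose to 35.6 ± 1.72 against 17.4 ± 3.28 CPM, although 51.6% of its exon bases are shared with an overlapping gene. ADGRE5 ends 94 bases from DDX39A, which rose to 155 CPM in shTRIP6 cells, against 110 CPM in shControl cells.

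ADGRG6 rose, while the type IV collagen genes among its ligands fell and 2 of the laminin-211 chains were not called. Of 10 tested genes for type IV collagen, laminin-211 chains and the prion protein, which ADGRG6 is known to bind, 0 rose and 8 fell (median log2 fold change -0.76, against -0.00 over all genes tested). All 6 type IV collagen chains fell. COL4A5 fell to 2.34 ± 0.957 CPM in shTRIP6 cells, against 36.9 ± 1.31 CPM in shControl cells, and COL4A4 to 0.797 ± 0.329 against 6.59 ± 1.23 CPM. The abundant chains COL4A1 and COL4A2 fell by 0.76 and 0.77 on the log2 scale. LAMA2, the chain that marks laminin-211, had 0.742 ± 0.0706 CPM in shTRIP6 and 0.830 ± 0.150 CPM in shControl cells and did not pass the test (adjusted p = 0.745), and neither did LAMB1 (log2 fold change -0.05, adjusted p = 0.404). The remaining chain, LAMC1, fell to 435 ± 5.63 CPM in shTRIP6 cells, against 685 ± 18.5 CPM in shControl cells. The prion protein gene PRNP fell slightly (log2 fold change -0.15). For ADGRG1, 3 of 5 tested ligands and partners rose and 2 fell. TGM2, tissue transglutaminase, rose to 2692 ± 82.6 CPM in shTRIP6 cells, against 2000.0 ± 116 CPM in shControl cells, and the tetraspanin gene CD81 to 208 ± 6.22 against 133 ± 8.97 CPM. COL3A1, the collagen III ligand of ADGRG1, fell to 0.275 ± 0.143 CPM in shTRIP6 cells, against 2.35 ± 0.360 CPM in shControl cells, and PLXNB2 to 245 ± 3.96 against 336 ± 11.6 CPM. The 8 fibroblast markers summed to 17.0 to 18.5 CPM in shTRIP6 libraries and to 29.8 to 33.6 CPM in shControl libraries. Of the 7 tested, PDGFRB rose, and FAP, COL1A1, DCN and POSTN fell, DCN and POSTN with 0 counts in shTRIP6 against 95 and 112 in shControl. All libraries are labelled as RKO, a single cell line, and why the collagen genes changed was not tested.

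**Figure D5:**
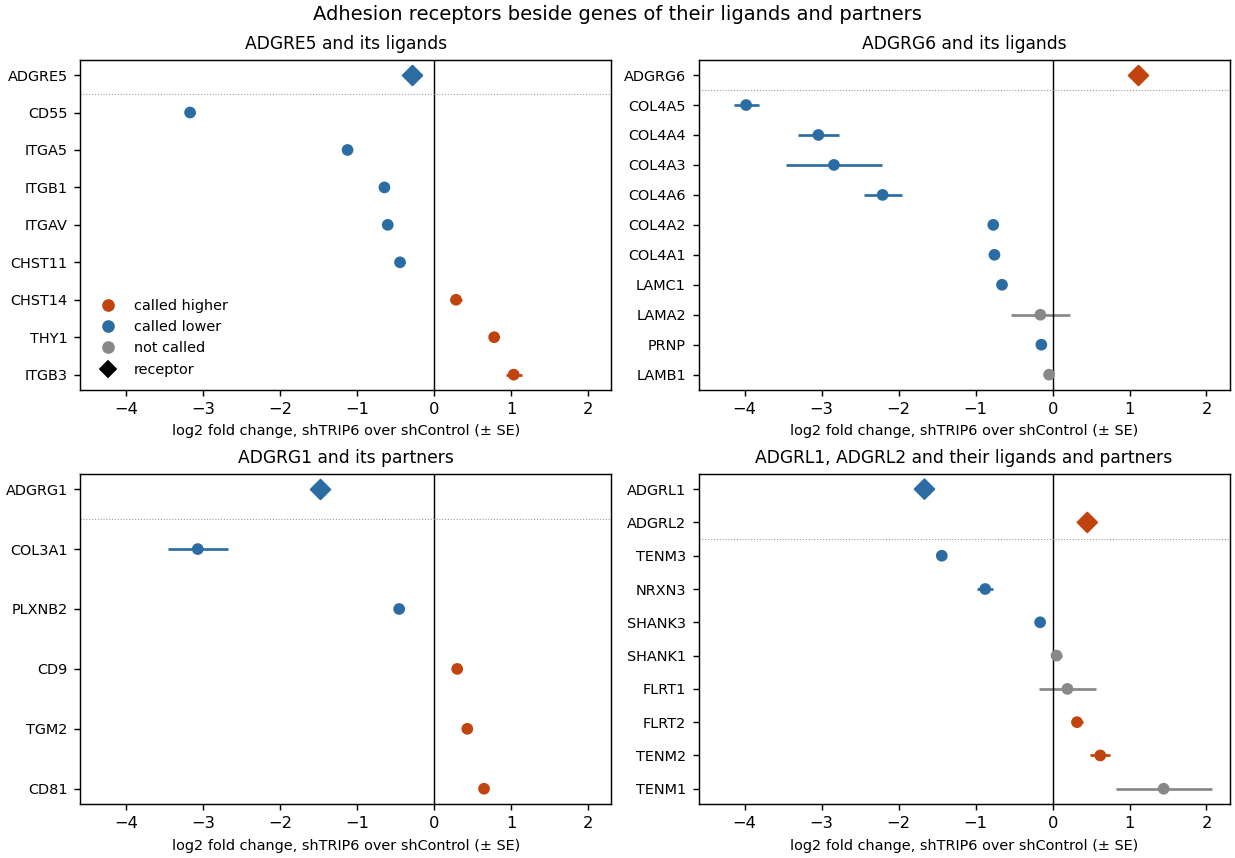
log2 fold change of shTRIP6 over shControl, with SE bars, of 5 adhesion receptor genes (diamonds) and, below them in each panel, the tested genes for its ligands and partners (circles). ADGRG6 lies at 1.11 above 10 genes of which 8 fell, and ADGRE5 lies at -0.30 above CD55 at -3.17.

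Of family B, ADGRB2 rose and ADGRB3 did not pass the test. ADGRB2, also known as BAI2, had 22.1, 19.8 and 21.6 CPM in shTRIP6 cells, against 16.9, 17.4 and 15.5 CPM in shControl cells, with no overlap (log2 fold change 0.35 ± 0.09, adjusted p = 0.00273). ADGRB3, a receptor of C1q-like proteins, had 15, 10 and 19 counts in shTRIP6 and 12, 1 and 9 counts in shControl, which overlap (log2 fold change 0.95 ± 0.62, adjusted p = 0.202). Of 11 tested ligands and partners of family B, 4 rose and 3 fell (median 0.04). The RAC exchange factor gene TIAM1 rose to 45.3 ± 0.364 CPM in shTRIP6 cells, against 30.7 ± 0.921 CPM in shControl cells, and the scaffold gene MAGI3 to 21.9 ± 1.48 against 16.8 ± 0.362 CPM. C1QL1 fell to 1.95 ± 0.188 CPM in shTRIP6 cells, against 5.03 ± 0.275 CPM in shControl cells, and RTN4RL1 to 0.774 ± 0.0897 against 2.14 ± 0.351 CPM.

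ADGRA2, also known as GPR124 and a WNT7 co-receptor of brain vessels, had 3.70, 4.03 and 5.08 CPM in shTRIP6 cells, against 5.61, 6.03 and 7.53 CPM in shControl cells. The groups lay close without overlap (log2 fold change -0.58 ± 0.18, adjusted p = 0.00827). This call was lost without shTRIP6 replicate 1 (adjusted p = 0.0516) or shControl replicate 3 (0.0547), with a range of 0.00188 to 0.0547 over the alternatives, and 23.1% of the exon bases of ADGRA2 lie under BRF2, which rose. ADGRA3, also known as GPR125, had 43.0, 42.3 and 46.1 CPM in shTRIP6 cells, against 41.5, 41.0 and 40.6 CPM in shControl cells. These groups do not overlap either, but the difference did not pass the test (log2 fold change 0.09 ± 0.07, adjusted p = 0.225). Of 8 tested genes that act with ADGRA2 or ADGRA3, 3 rose and 5 fell (median -0.41). The ligand gene WNT7B fell to 0.892 ± 0.365 CPM in shTRIP6 cells, against 39.0 ± 0.881 CPM in shControl cells (log2 fold change -5.45 ± 0.15, adjusted p = 4.41e-16), and the receptor gene FZD4 to 13.8 ± 0.786 against 28.3 ± 2.15 CPM. Of the exon bases of FZD4, 18.9% lie under PRSS23 on the other strand. WNT7A rose to 6.77 ± 0.466 CPM in shTRIP6 cells, against 3.29 ± 1.58 CPM in shControl cells, and DLG1, whose product binds both receptors, rose to 169.8 ± 11.7 against 122 ± 3.17 CPM.

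The 3 CELSR genes, adhesion receptors of planar cell polarity whose symbols do not start with ADGR, all fell. CELSR2 fell to 3.37 ± 0.206 CPM in shTRIP6 cells, against 23.4 ± 2.77 CPM in shControl cells (log2 fold change -2.79 ± 0.13, adjusted p = 7.17e-13). CELSR1 fell to 38.7 ± 2.51 against 97.4 ± 1.57 CPM, and CELSR3 to 60.6 ± 1.52 against 76.2 ± 1.27 CPM.

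Among the G protein alpha subunits that such receptors couple to, 4 of 11 tested genes rose and 4 fell (median -0.01). GNA12 rose to 209 ± 3.61 CPM in shTRIP6 cells, against 156 ± 5.28 CPM in shControl cells, while GNA13 had 189 ± 6.29 and 191 ± 3.17 CPM and did not pass the test. GNAI2 rose to 327 ± 4.28 against 227 ± 13.4 CPM. GNAS, the stimulatory subunit, fell to 477 ± 3.10 CPM in shTRIP6 cells, against 816 ± 16.9 CPM in shControl cells, and GNAO1 fell to 0.498 ± 0.211 against 7.11 ± 1.44 CPM. Of 9 tested GTPase exchange factors and effectors downstream of G12 and G13 proteins, 3 rose and 4 fell (median -0.07). ARHGEF1, which links G12 and G13 proteins to RHOA, rose to 96.6 ± 0.899 CPM in shTRIP6 cells, against 61.5 ± 6.70 CPM in shControl cells, and RHOC to 211 ± 8.56 against 142 ± 7.02 CPM. RHOB fell to 37.8 ± 2.23 CPM in shTRIP6 cells, against 145 ± 6.64 CPM in shControl cells, and AKAP13 to 78.1 ± 1.48 against 116 ± 1.91 CPM. Of 7 tested receptor kinases and arrestins, which turn receptors off, 3 rose and 1 fell (median 0.19), with 1 rise without shTRIP6 replicate 2 or without shControl replicate 2. GRK3 rose to 35.7 ± 0.664 CPM in shTRIP6 cells, against 21.4 ± 0.149 CPM in shControl cells, and ARRB2 to 27.7 ± 1.24 against 23.8 ± 0.959 CPM. GRK5 fell to 5.11 ± 0.878 CPM in shTRIP6 cells, against 16.0 ± 1.65 CPM in shControl cells.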

How the data were processed

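The authors deposited raw read counts per gene symbol, 27980 symbols in each of 6 libraries, not normalized. TopHat2, edgeR, limma and build hg38 are listed, per the submitters' processing notes, without role or version. Counting tool, annotation and strand: not given in the sources used here. Labels gave the groups and replicate numbers.

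The counts were compared with edgeR 4.0.16 in R 4.3.3 (TMM, filterByExpr, quasi-likelihood test, group as the only term), with Benjamini-Hochberg adjustment over all 15473 genes tested and a threshold of 0.05. SE is the log2 fold change over the square root of F. CPM used TMM-scaled library sizes. The test was also run on simulated data with a common spread for all genes and few changed genes. That setting differs from these data, so it does not show the error rate here. Alternatives were other scalings and filters, DESeq2 1.42.0, limma-voom (limma 3.58.1), the replicate number as a block, and leaving out each library; those for the summed level were chosen after seeing the data. Gene models came from GENCODE release 29 (GRCh38).

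The members and the 16 gene lists were chosen with earlier results of these data known. Named by rule were, per list, the largest called rises and falls (up to 2 each) averaging at least 1 CPM; so were the CELSR genes, the nearest tested genes beside each called member and TRIP6, while other list members and markers were named after their values were seen. Intervals and floors cover counting error only. Some genes are counted in the totals but are not reported here.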

Additional observations from a re-analysis of the deposited data

How the results depend on the processing

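The 12 member calls kept their direction and stayed past the threshold in 14 alternatives (RLE, upper-quartile and no scaling, no filter, 1 CPM in 3 libraries, DESeq2, limma-voom, the replicate block and 6 leave-one-out fits), except ADGRA2 as given above. Calls numbered 5 to 6 higher and 6 to 8 lower. The added calls were ADGRF5 as lower, without the filter and in DESeq2, and ADGRB1 as higher without shControl replicate 2 (adjusted p = 0.0257). With the replicate block 5 members were higher and 7 lower. Same-numbered libraries did not deviate together (correlations of -0.02, -0.04 and -0.03). Such values cannot show whether the libraries were made in pairs, which the labels do not state. Over all genes, calls ranged from 4018 to 5073 higher and 4368 to 5049 lower. Silent members numbered 9 with a mean under 0.1 CPM in both groups as the rule, 10 with no library above 10 counts, 4 with 0 counts throughout, and 5 to 6 when a library was left out. The summed level had a log2 ratio of -0.14 under upper-quartile scaling. Depth limits what can be said of the 13 silent and trace genes, and 3 libraries a group limit all tests.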

Other observations

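The 3 hyphenated symbols of the family, antisense genes of ADGRA1, ADGRD1 and ADGRL3, had 0 counts in all libraries. Of the partners of ADGRV1 in the Usher complex of hair cells and photoreceptors, 2 of 4 tested genes rose and 1 fell, although ADGRV1 itself had only traces. WHRN, the whirlin scaffold, fell to 2.93 ± 0.344 CPM in shTRIP6 cells, against 8.02 ± 0.663 CPM in shControl cells, and CIB2 and the myosin gene MYO7A rose by 1.27 and 0.82 on the log2 scale. The rises numbered 1 without shTRIP6 replicate 1 or with a filter of 1 CPM, and 1 without shControl replicate 2.

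Some neighbours of the other called members also changed. VAV1, 30200 bases from ADGRE1, fell to 0.0530 CPM in shTRIP6 cells, against 5.01 CPM in shControl cells, while ADGRE1 rose. Beside ADGRG6, VTA1 did not pass the test (log2 fold change 0.01) and HIVEP2 fell by 0.28. Beside ADGRL1, ASF1B rose by 0.31, and beside ADGRB2, SPOCD1 rose by 0.25 and COL16A1 did not pass the test (-0.26). IFI44 and TTLL7, more than 1 Mb from ADGRL2, fell by 3.55 and 0.39, and ZNF557, on the other side of ADGRE1, fell by 0.46. Beside ADGRA2, BRF2 and PLPBP rose by 0.21 and 0.19.

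Markers of cell types in which silent or trace members are best known were mostly low. The 8 endothelial markers summed to 1.80 to 1.95 CPM in shTRIP6 libraries and to 2.65 to 3.56 CPM in shControl libraries. PECAM1 had 0 counts in shTRIP6 and 151 in shControl, and the rise of TIE1 (log2 fold change 0.94, edgeR adjusted p = 0.0379), the only one of this list, was lost when any shTRIP6 library or shControl replicate 1 was left out, and in DESeq2. The 8 neuronal markers summed to 239 to 259 CPM in shTRIP6 libraries and to 96.4 to 111 CPM in shControl libraries, nearly all of it the tubulin gene TUBB3, which rose by 1.30. Of the exon bases of TUBB3, 35.8% are shared with an overlapping gene. MAP2 fell by 2.32, SYT1 had 6 counts in shTRIP6 and 48 in shControl, and SNAP25 rose close to the threshold (0.49, adjusted p = 0.0496). In 12 of 14 alternatives the neuronal markers held 1 rise in place of 2. Of the colon epithelial markers, KRT19 rose to 50.6 ± 3.15 CPM in shTRIP6 cells, against 13.8 ± 2.27 CPM in shControl cells, and KRT8 and KRT18 were not called.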
